A study of Oryza sativa with 14 samples.

Results

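In roots of dark-grown rice seedlings, 186 of the 57258 probe sets measured stood at least 2-fold lower in the mutants mhz4 and mhz5 than in the wild type (WT), in ethylene and in air alike. A probe set is a group of short probes on the array that reads 1 transcript or a few related ones. Members were selected on the measured root signals: each had a difference of -1 or less on the log2(signal + 8) scale in all 4 comparisons (mhz4 or mhz5 minus WT, in ethylene and in air) and a signal of at least 50 on both WT root arrays, which 19132 probe sets reached. The root differences of mhz4 and mhz5 from WT therefore describe how these members were picked and carry no test. The members with 1 annotated gene numbered 128 and covered 127 genes, the other 58 are unnamed here, and 26 genes had an informative name.

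The study measured RNA of etiolated seedlings on 14 one-colour arrays of rice, 1 for each combination of genotype, tissue and gas. Roots were taken from mhz4, mhz5, mhz1 and WT, and shoots from mhz4, mhz5 and WT. Seeds germinated for 2 days at 37 °C in the dark, and seedlings aged 3 days were then treated with 10 ppm ethylene for 8 h at 28 °C. Other seedlings were kept in air as controls, and their age, hours in air and temperature are not recorded here. The labels state a lowered water level for the ethylene treatment and say neither how many seedlings went into a sample nor what kind of mutation each line carries. With 1 array per group, no difference between 2 single arrays has a replicate check. The titles of both WT root arrays, and of no other array, carry a mark "mb" whose meaning is not given, and every root difference of a mutant from WT is aligned with it. A signal of 50 or more was found for 19196 to 20048 probe sets per array.

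As background, ethylene is a gas hormone that slows root growth and promotes coleoptile growth in etiolated rice. In published work on these lines MHZ5 is a carotenoid isomerase, MHZ4 is a plastid membrane protein needed to make the hormone abscisic acid (ABA), and MHZ1 is a histidine kinase of ethylene signalling. Carotenoids are the precursors of ABA, which plant cells sense through receptors that inhibit clade A PP2C phosphatases, and many of these phosphatase genes are themselves induced by ABA.

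The member medians of the root differences were -1.63 in mhz4 and -1.61 in mhz5 in ethylene, and -1.68 in mhz4 and -1.58 in mhz5 in air, against -0.08, -0.06, -0.06 and -0.08 over all 19132 probe sets that could qualify. Of those 19132, the share at -1 or less was 2.94% for mhz4 and 2.63% for mhz5 in ethylene, 4.78% for mhz4 and 3.3% for mhz5 in air, and 0.972% in all 4 at once. Differences of -2 or less in all 4 occurred in 13 members, and 53 members had a signal below 50 on all 4 mhz4 and mhz5 root arrays. The same rule turned round, at least 1 higher in all 4 with the same WT minimum of 50, held for 32 probe sets. Probe sets below 50 on a WT root array could not count, even if raised in both mutants. The number of members and this number are therefore not a like-for-like comparison of lower and higher. The cut is not a gap in the data. Within a band of 0.05 on either side of the threshold of -1, 24 members had their weakest difference between -1.04 and -1. In the same band 24 probe sets just missed it, the farthest at -0.951. Within a band of 5 on either side of the WT minimum, 7 members had their lower WT signal between 50.7 and 55, and 4 probe sets just missed it with 45 to 49.1.

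Bulk RNA cannot tell fewer cells of a type from less RNA per cell. Of 5 plastid marker genes, 2 stood at least 2-fold above WT in mhz4 roots in ethylene and 1 in mhz4 roots in air. In ethylene 1 stood at least 2-fold below WT in mhz5 roots and 1 in mhz1 roots. The list summed to 504 in mhz4 roots in ethylene, against 67.9 to 129 on the other root arrays and 19304 to 28021 in shoots. The 9 root markers summed to 19974 in mhz4, 23790 in mhz5, 16504 in mhz1 and 18842 in WT roots in ethylene. In air they summed to 15727 in mhz4, 19034 in mhz5, 10231 in mhz1 and 10525 in WT roots. Most of each sum came from NAS1 and Lsi1, so the sums mainly follow these genes. NAS1 alone gave 10135 in mhz4, 12038 in mhz5, 7864 in mhz1 and 9550 in WT roots in ethylene. Its air values were 7615 in mhz4, 10398 in mhz5, 4683 in mhz1 and 4786 in WT roots. In each gas 1 of the 9 in mhz4 and 2 in mhz5 stood at least 2-fold above WT, and none was at least 2-fold below it in any mutant root. No marker was at 0. The root hair list had 1 gene, too few for a check. The part of these markers in the root differences was not tested.

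**Figure D1:**
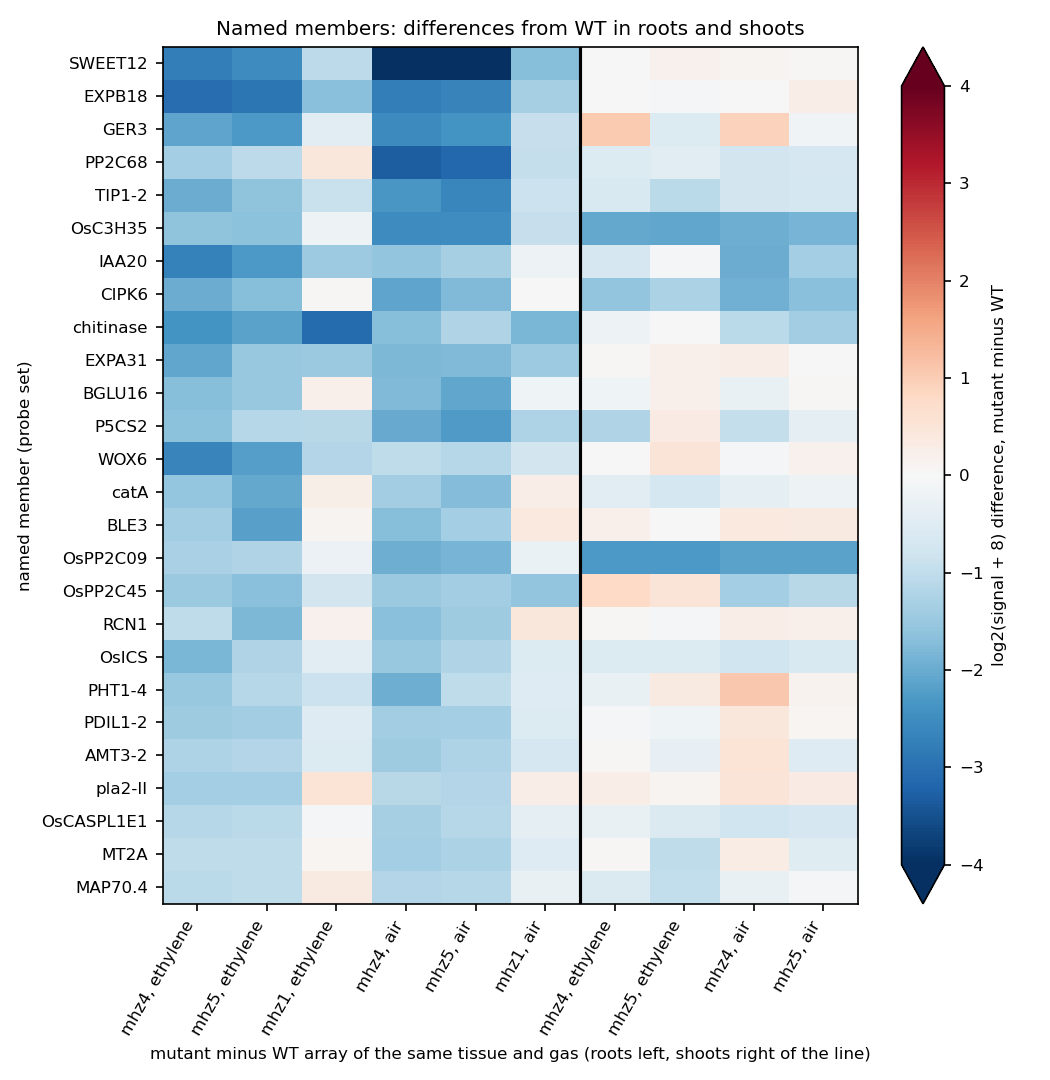
Differences from WT on the log2(signal + 8) scale (colour, blue lower and red higher in the mutant) for the 26 named members (one per line) in roots (left of the black line) and shoots (right of it), 1 array against 1 array. All mhz4 and mhz5 root cells are blue because they chose the members. The mhz1 columns are paler for most members, and in shoots OsPP2C09, OsC3H35 and CIPK6 are blue in all 4 columns.

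Among the hormone signalling members were phosphatases of the ABA pathway. OsPP2C09, a clade A PP2C, read 129 in mhz4, 138.5 in mhz5, 279 in mhz1 and 329 in WT roots in ethylene. In air it read 124.6 in mhz4, 132 in mhz5, 419 in mhz1 and 501 in WT roots. Both mutants stayed within 124.6 to 138.5 whatever the gas, and mhz1 lay close to WT (-0.23 in ethylene, -0.25 in air). PP2C68, a second phosphatase of this clade, read 15.7 in mhz4, 21.4 in mhz5, 75.0 in mhz1 and 53.2 in WT roots in ethylene, a WT value just over the minimum. In air PP2C68 read 22.5 in mhz4, 25.7 in mhz5, 146 in mhz1 and 292 in WT roots, so its differences from WT were wider in air (-3.30 and -3.16) than in ethylene (-1.37 and -1.06). On a list of ABA perception and signalling genes these 2 were the members among 16 genes that reached the WT minimum (12.5%, against 0.96% of all 12703 genes), and the list's median of the mean root difference was -0.34, against -0.07 over all genes. OsPP2C30, also of clade A, missed the list only through the WT minimum, with 36.5 in WT roots in ethylene, and its mean difference was -2.34. The kinases SAPK4 and SAPK8 of the same list had mean differences of 0.19 and -0.10, both above the list's median of -0.34, so they do not stand for the whole list. The member probe set of OsPP2C45, a PP2C whose place in ABA signalling is not known here, averaged -1.51, but another, brighter probe set of the gene averaged -0.07, so the probe sets of this gene disagree.

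CIPK6, a protein kinase that works with calcium sensors of the CBL family, read 187 in mhz4, 228 in mhz5, 797 in mhz1 and 764 in WT roots in ethylene. In air it read 191 in mhz4, 246 in mhz5, 863 in mhz1 and 852 in WT roots. The mutants mhz4 and mhz5 were low, and mhz1 and WT were within 0.06 of each other in both gases. IAA20, an Aux/IAA repressor of auxin response, read 57.9 in mhz4, 78.5 in mhz5, 147 in mhz1 and 417 in WT roots in ethylene, and 48.2 in mhz4, 60.1 in mhz5, 140 in mhz1 and 162 in WT roots in air. It was the 1 member among 45 auxin genes with the WT minimum (2.22%, against 0.96% of all genes). WOX6, a homeobox transcription factor, averaged -1.75, with its weakest difference at the threshold (-1 in mhz4 in air). OsC3H35, named for a CCCH zinc finger, read 115 in mhz4, 112 in mhz5, 317 in mhz1 and 366 in WT roots in ethylene, and 118 in mhz4, 121 in mhz5, 366 in mhz1 and 707 in WT roots in air. WOX6 and OsC3H35 were the only members among 127 transcription factor genes that reached the WT minimum (1.57%, against 0.96% of all genes). The name patterns of that list included the WOX and C3H families of these 2 genes, beyond the families first set out, so nothing is read from the count.

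Among transporters, SWEET12, a sugar exporter of the SWEET family, had the lowest mean difference of the named members (-4.18). It read 5.67 in mhz4, 8.07 in mhz5, 36.7 in mhz1 and 84.2 in WT roots in ethylene. In air it read 6.03 in mhz4, 7.69 in mhz5, 232 in mhz1 and 777 in WT roots. The mhz4 and mhz5 roots lay near the shoot arrays (3.99 to 5.57), and mhz1 lay between them and WT. The vacuolar aquaporin TIP1-2 read 38.2 in mhz4, 51.7 in mhz5, 89.8 in mhz1 and 173 in WT roots in ethylene. TIP1-2 was the 1 member among 18 aquaporins with the WT minimum (5.56%, against 0.96% of all genes). PHT1-4, a phosphate transporter, and AMT3-2, an ammonium transporter, averaged -1.40 and -1.27. Both probe sets are by name of the x type, which can read related transcripts, and the weakest difference of PHT1-4 was -1.02. PHT1-4 and AMT3-2 were the members among 16 nitrogen and phosphate uptake genes (12.5%, against 0.96% of all genes). That list's median mean difference was 0.22, and NRT2.2, a nitrate transporter, stood at least 1 higher than WT in all 4 (mean 1.56). None of 34 metal transport genes was a member, and with 0.96% of all genes as members nothing is read from this.

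Cell wall and barrier genes gave 5 named members. EXPB18, a beta-expansin (expansins loosen cell walls), read 12.2 in mhz4, 14.4 in mhz5, 44.5 in mhz1 and 160 in WT roots in ethylene, and 5.97 in mhz4, 6.90 in mhz5, 29.7 in mhz1 and 87.6 in WT roots in air. EXPA31, an alpha-expansin, averaged -1.79. EXPB18 and EXPA31 were the members among 20 expansins (10%, against 0.96% of all genes), whose median mean difference was -0.02. EXPB3, a beta-expansin on the same list, stood at least 1 higher than WT in all 4 (mean 1.20). NRT2.2 and EXPB3 are named here after their values were seen. RCN1 (OsABCG5), an ABC transporter needed for suberin in rice roots, read 160 in mhz4, 91.5 in mhz5, 376 in mhz1 and 334 in WT roots in ethylene. In air RCN1 read 127 in mhz4, 152 in mhz5, 574 in mhz1 and 420 in WT roots. BLE3 (OsCASPL1C2), a CASP-like membrane protein first described as brassinolide-enhanced, read 280 in mhz4, 157 in mhz5, 798 in mhz1 and 741 in WT roots in ethylene, and 274 in mhz4, 345 in mhz5, 1182 in mhz1 and 899 in WT roots in air. For RCN1 and BLE3 alike, mhz1 stood above WT in both gases while mhz4 and mhz5 stood below it. With OsCASPL1E1 (mean -1.17) they made 3 members among 26 genes of suberin, the casparian strip and wax (11.5%, against 0.96% of all genes), a list with a median of -0.10. The name patterns of that list held RCN1 by its own name, beside the ABCG family first set out, so nothing is read from the count. OsCASP1 averaged 0.40 and was no member. None of 27 other cell wall genes was a member, from which nothing is read at an all-gene share of 0.96%.

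The remaining named members belong to metabolism, stress and defence. P5CS2, which starts proline synthesis from glutamate, averaged -1.76, and catA, a catalase that breaks down hydrogen peroxide, -1.67. Both brighter probe sets of catA were lower too, by means of -1.22 and -1.06, but missed the threshold. OsICS, an isochorismate synthase, averaged -1.43. The germin-like protein GER3 averaged -2.34, and a gene annotated as a chitinase -1.86. BGLU16 (beta-glucosidase), PDIL1-2 (protein disulfide isomerase), pla2-II (phospholipase A2), MT2A (metallothionein) and MAP70.4 (microtubule-associated) ranged in mean from -1.76 to -1.10. Lists with no member and at least 20 genes at the WT minimum included cytokinin (22 genes) and jasmonate (24). With 0.96% of all genes as members, lists of this size are too short to read anything from that.

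Some of the widest root differences belonged to genes the files do not annotate. LOC4350299 read 11.2 in mhz4, 13.5 in mhz5, 68.7 in mhz1 and 204 in WT roots in ethylene, and 86.7 in mhz4, 16.5 in mhz5, 343 in mhz1 and 1419 in WT roots in air (mean -4.14). LOC4351498 (-3.91), LOC4352168 (-3.89), LOC4347252 (-3.49) and LOC4324822 (-3.22) followed. In the ASM3414082v1 gene table LOC4343812, LOC4343813 and LOC4343814 are direct neighbours and all are members, as are the adjacent pair LOC4348810 and LOC4348811. BLE3 and EXPB18 have 1 gene between them. Of 30 member genes with another probe set, 11 further probe sets reached the WT minimum without being members, and 8 of those had a mean difference below 0. The largest disagreement was LOC4328841, whose member probe set averaged -1.78 and whose brighter probe set averaged 1.33. LOC4333735 (0.03) and LOC4346226 (0.08) also had a further probe set near 0. By their names 15 members are of the x type and 12 of the s type, which can read related transcripts. Among the named members PHT1-4, AMT3-2 and BGLU16 are of the x type and MT2A is of the s type.

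The mhz1 root arrays were not used to choose members, but their differences are taken from the same WT root arrays as the rule, so a high or low WT value enters both and no test was made. The member medians of mhz1 minus WT were -0.29 in ethylene and -0.40 in air, against -0.01 and -0.04 over all that could qualify. At -1 or less stood 42 members in ethylene (22.6%, against 0.669% of all) and 30 in air (16.1%, against 0.632%). In both gases 20 did (10.8%, against 0.303%), among them SWEET12, EXPB18, EXPA31, P5CS2 and the chitinase gene. The chitinase gene was the 1 named member with mhz1 lower than mhz4 and mhz5 in both gases, at 26.2 in mhz1 and 282 in WT in ethylene and at 37.9 in mhz1 and 155 in WT in air. At the other end 41 members (22.0%, against 30.1%) were above WT in both gases in mhz1, the named ones being CIPK6, catA, BLE3, RCN1 and pla2-II. Within 0.5 of WT in both gases were 70 members (37.6%, against 89.5%). A direct comparison without WT set mhz4 and mhz5 at least 2-fold below mhz1 in all 4 pairs for 93 members (50%, against 0.899%), although the rule had already used the mhz4 and mhz5 arrays. At least 2-fold above WT in mhz1 stood 2 members in ethylene (1.08%, against 0.376%) and 0 in air (against 0.329%). One of them, LOC4347252, was higher than WT in ethylene (633 in mhz1 and 217 in WT) and lower in air (739 in mhz1 and 1234 in WT).

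**Figure D2:**
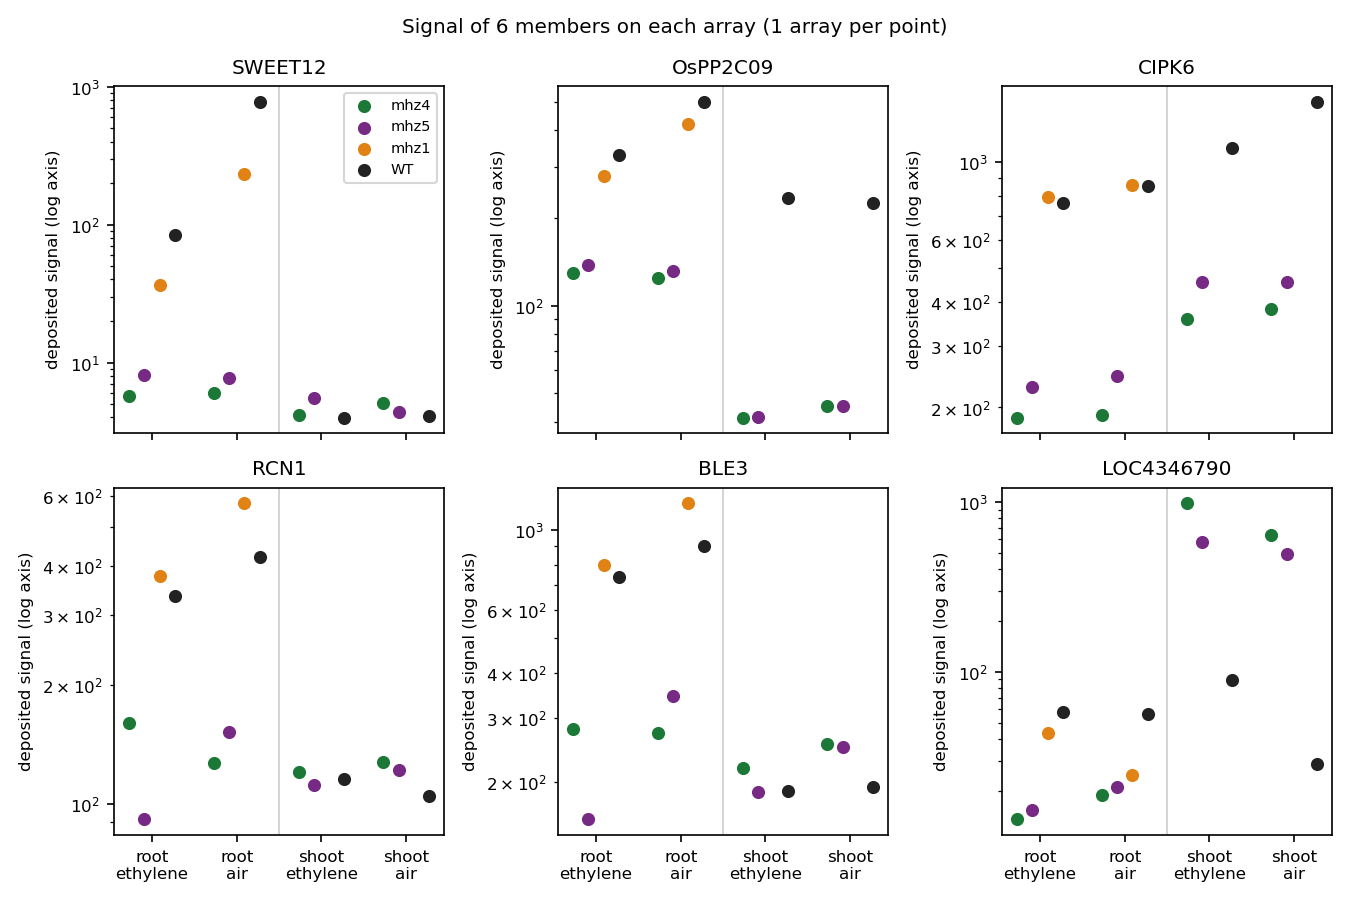
Deposited signal (log axis, each panel with its own range) of 6 members in roots and shoots, ethylene left of air, with 1 point for each array. The mhz4 and mhz5 root points lie below mhz1 and WT in all panels. In shoots OsPP2C09 and CIPK6 are below WT in both mutants, RCN1 and BLE3 are level, SWEET12 is near the low end, and LOC4346790 is far above WT in mhz4 and mhz5.

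Ethylene against air was compared within each genotype's roots, 1 pair of arrays each, with no test. In mhz1, whose arrays the rule did not use, 38 members were at least 2-fold lower in ethylene (20.4%, against 0.904% of all) and 3 at least 2-fold higher (1.61%, against 0.622%). In mhz4 27 members were lower (14.5%, against 1.08%) and 4 higher (2.15%, against 0.946%). In mhz5 39 were lower (21%, against 1.68%) and 9 higher (4.84%, against 0.617%). In WT 45 were lower (24.2%, against 1.4%) and 7 higher (3.76%, against 0.977%). The rule used the mhz4, mhz5 and WT arrays, so nothing is read from those shares. In all 4 genotypes 15 members were at least 2-fold lower in ethylene (8.06%, against 0.319%), a share that also rests on the arrays the rule used. LOC9268400 read 11.9 in ethylene and 577 in air in mhz4 roots, 11.9 and 528 in mhz5, 176 and 2284 in mhz1, and 125.4 and 1444 in WT. The neighbours LOC4343812, LOC4343813 and LOC4343814 belong to this set, LOC4343814 with both its probe sets, LOC4343813 for instance with 99.8 in ethylene and 500.4 in air in mhz4, and 400.3 in ethylene and 1757 in air in WT. SWEET12 differed by -2.43 in mhz1 and -3.09 in WT, while in mhz4 and mhz5 it was near the low end of the array in both gases. IAA20 and WOX6 were the named members at least 2-fold higher in ethylene in WT roots (1.33 each), with 0.06 and 0.88 in mhz1, 0.23 and -0.32 in mhz4, and 0.34 and 0.28 in mhz5.

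**Figure D3:**
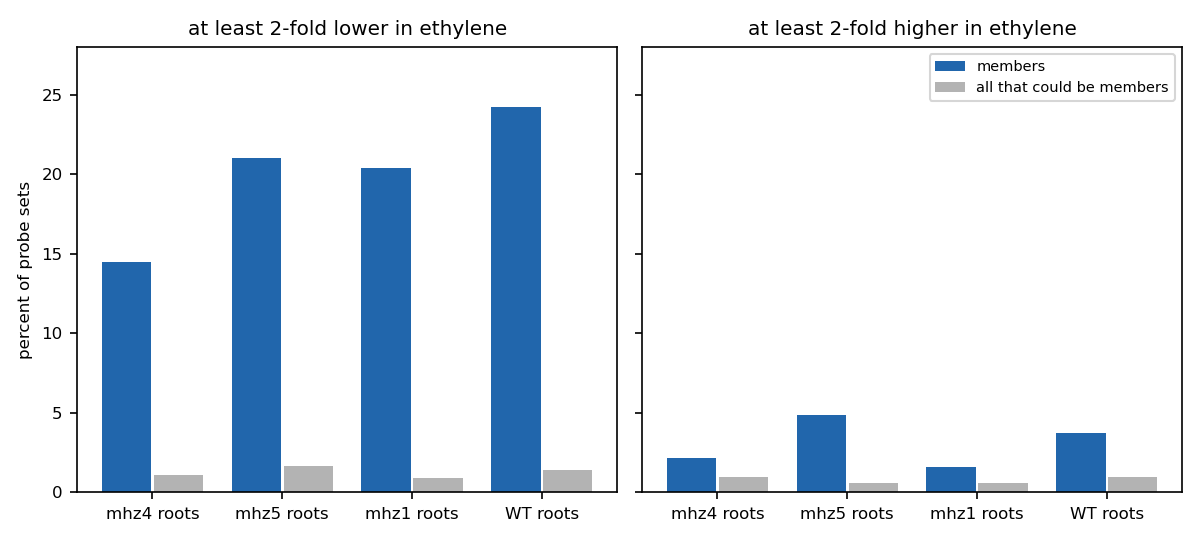
Percent of members (blue) and of all probe sets that could be members (grey) at least 2-fold lower (left) or higher (right) in ethylene than in air, per root genotype, from 1 ethylene and 1 air array each. In mhz1, the genotype whose arrays the rule did not use, 20.4% of the members were lower, against 0.904% of all, and nothing is read from the bars of mhz4, mhz5 and WT.

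By tissue, 89 members (47.8%, against 16.5%) were at least 2-fold brighter in WT roots than in WT shoots in both gases, among them SWEET12, EXPB18, TIP1-2, PHT1-4, AMT3-2, RCN1 and BLE3. Shoots were at least 2-fold brighter for 30 (16.1%, against 6.2%), including catA, OsICS, pla2-II and OsCASPL1E1. Below 50 on all 6 shoot arrays were 65 members (34.9%, against 7.26%). The rule used the WT root values, both in its minimum of 50, which applies to both sides of these shares, and in its differences, which applies to the members alone, so nothing is read from these shares.

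The rule did not use the shoot arrays, and the test was made on them. They come from the same lines, and the tests were chosen with earlier results of these data known. A limma fit of genotype and gas to the 6 shoot arrays covered 19768 probe sets, 111 of them members, and left 75 members with too little shoot signal untested. The 2 gases stand in as replicates of a genotype, with gas itself a term of the fit. The p-values therefore rest on how genotype differences vary between the gases, plus array noise, and not on the spread between seedlings. In mhz4 shoots 26 members were lower (23.4%, against 6.24% of all tested) and 14 higher (12.6%, against 9.79%), at an adjusted p under 0.05. In mhz5 shoots 21 were lower (18.9%, against 2.68%) and 3 higher (2.7%, against 5.82%). Of all 186 members, tested or not, 7 were at least 2-fold lower in all 4 single-array shoot pairs (3.76%, against 0.209% of the 19132 that could qualify). At least 2-fold higher in all 4 was 1 of the 186 (0.538%, against 0.528% of the 19132). By limma, lower in both were 17 members (15.3%, against 2.06% of all tested), and 67 were called in neither (60.4%, against 82.2%). Both comparisons use the same WT shoot arrays. Member medians were -0.11 in mhz4 and -0.20 in mhz5, against 0.05 and 0.08 over all tested. The calls lean on single arrays: without the air array of mhz4 shoots 4 members were lower in mhz4, and without its ethylene array 5, and mhz5 counts were 3 and 4 without its air and ethylene array, 9 without either mhz4 shoot array, and 32 without the WT ethylene array. The 14 higher calls of mhz4 became 1 without either mhz4 array. The 3 of mhz5 became 0 without its air array, 1 without its ethylene array or either mhz4 array, and 6 without the WT ethylene array.

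The phosphatase OsPP2C09, low in mutant roots, was low in mutant shoots as well. OsPP2C09 read 41.3 in mhz4, 41.5 in mhz5 and 235 in WT shoots in ethylene, and 45.4 in mhz4, 45.2 in mhz5 and 226 in WT shoots in air. The mutant and WT arrays did not overlap, and OsPP2C09 was lower by limma by -2.21 ± 0.12 (SE) in mhz4 and by -2.21 ± 0.12 in mhz5 (adjusted p = 0.0038 for mhz4, 0.00393 for mhz5). OsC3H35 read 351 in mhz4, 340 in mhz5 and 1469 in WT shoots in ethylene, and 252 in mhz4, 270 in mhz5 and 990 in WT shoots in air. Its limma differences were -1.99 ± 0.10 in mhz4 and -1.97 ± 0.10 in mhz5, with the same adjusted p values as OsPP2C09. The unannotated LOC4335295 was lower by -1.92 ± 0.09 in each mutant, with 364 in mhz4, 351 in mhz5 and 1333 in WT shoots in ethylene. These 3 genes kept both calls in every alternative fit in which they were tested. CIPK6 read 358 in mhz4, 455 in mhz5 and 1095 in WT shoots in ethylene, and 382 in mhz4, 456 in mhz5 and 1484 in WT shoots in air. CIPK6 was lower by -1.76 ± 0.13 in mhz4 (limma adjusted p = 0.00504) and -1.47 ± 0.13 in mhz5 (adjusted p = 0.0113). Without the mhz4 air array its mhz4 adjusted p was 0.0511, and without an mhz5 array its mhz5 adjusted p reached 0.105.

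Further members lower in both shoots by limma were LOC4351498 (-2.62 in mhz4 and -2.36 in mhz5), LOC4331910 (-1.89 and -1.62), LOC4341335 (-1.70 and -1.30) and OsICS (-0.68 and -0.57). MT2A was lower in mhz5 (-0.75, limma adjusted p = 0.0383), with 0.17 in mhz4 (adjusted p = 0.415). The difference between mhz5 and mhz4 shoots called 0 members in either direction in this limma fit, against 0.0304% of all probe sets lower and 0.212% higher, with 18 members lower (16.2%, against 5.23% of all) and 5 higher (4.5%, against 7.93%) at an unadjusted p under 0.05. With all 14 arrays fitted 4 members were lower, and without either WT shoot array 8. On the ABA signalling list 15 genes were tested in shoots, of which 4 were lower in mhz4 and 4 in mhz5, and 2 were higher in mhz4 and 0 in mhz5. The lower ones include the member OsPP2C09. Of all 13165 genes tested, 886 were lower and 1357 higher in mhz4, and 330 lower and 809 higher in mhz5. SWEET12, EXPB18, EXPA31, WOX6, PP2C68 and PDIL1-2 were below 50 on all shoot arrays. RCN1 (0.16 and 0.08) and BLE3 (0.30 and 0.17) did not pass the test, with adjusted p from 0.155 to 0.663. The 9 root markers summed to 9842 in mhz5 and 885 in mhz4 shoots in ethylene, against 1807 in WT, and to 7435 in mhz5 and 646 in mhz4, against 507 in WT, in air. In mhz5 shoots 2 of the 9 were at least 2-fold above WT in each gas, and NAS1 alone gave 9181 in ethylene and 6884 in air. The 14 markers of dividing cells summed to 2585 in mhz5 and 1873 in mhz4, against 1348 in WT shoots in ethylene, with 6 of them at least 2-fold above WT in mhz5 and 0 in mhz4. In air they summed to 2241 in mhz5 and 2038 in mhz4, against 1579 in WT, with 1 and 0 of them at least 2-fold above WT. The 5 plastid markers summed to 25936 in mhz5 and 28021 in mhz4, against 19304 in WT shoots in air, with 1 of them at least 2-fold above WT in each mutant, and to 19436 in mhz5 and 24479 in mhz4, against 20412 in WT, in ethylene. The part of these markers in the shoot calls was not tested.

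By limma 14 members were higher in mhz4 shoots (12.6%, against 9.79% of all tested) and 3 in mhz5 shoots (2.7%, against 5.82%). LOC4346790 read 977 in mhz4, 579 in mhz5 and 89.2 in WT shoots in ethylene, and 634 in mhz4, 491 in mhz5 and 28.7 in WT shoots in air. By limma it was higher by 3.73 ± 0.27 in mhz4 (adjusted p = 0.00489) and 3.18 ± 0.27 in mhz5 (adjusted p = 0.0113). In roots the same probe set read 13.6 in mhz4, 15.3 in mhz5, 43.3 in mhz1 and 58.1 in WT in ethylene. LOC9268371 (1.08 in mhz4 and 0.73 in mhz5) and LOC4345968 (0.97 and 0.67) were the other members higher in both by limma. GER3 was higher in mhz4 shoots (0.98 ± 0.16, limma adjusted p = 0.0193), with -0.35 in mhz5 (adjusted p = 0.202).

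Ethylene against air in shoots, with the 3 genotypes standing in as replicates, called 3 members lower (2.7%, against 0.567%) and 1 higher (0.901%, against 0.263%) by limma. LOC4333070 was lower by -1.51 ± 0.09 (adjusted p = 0.0109), with 269 in ethylene and 763 in air in mhz4, 311 and 1020 in mhz5, and 439 and 1153 in WT. LOC4333208 and LOC4350295 were also lower, and LOC4334643 was higher by 0.71 (adjusted p = 0.0432). None of these 4 calls remained in every alternative fit: there were 0 lower and 0 higher when any 1 mhz4 or mhz5 shoot array was left out, 10 and 10 without the WT air array, and 9 and 9 without the WT ethylene array.

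**Figure D4:**
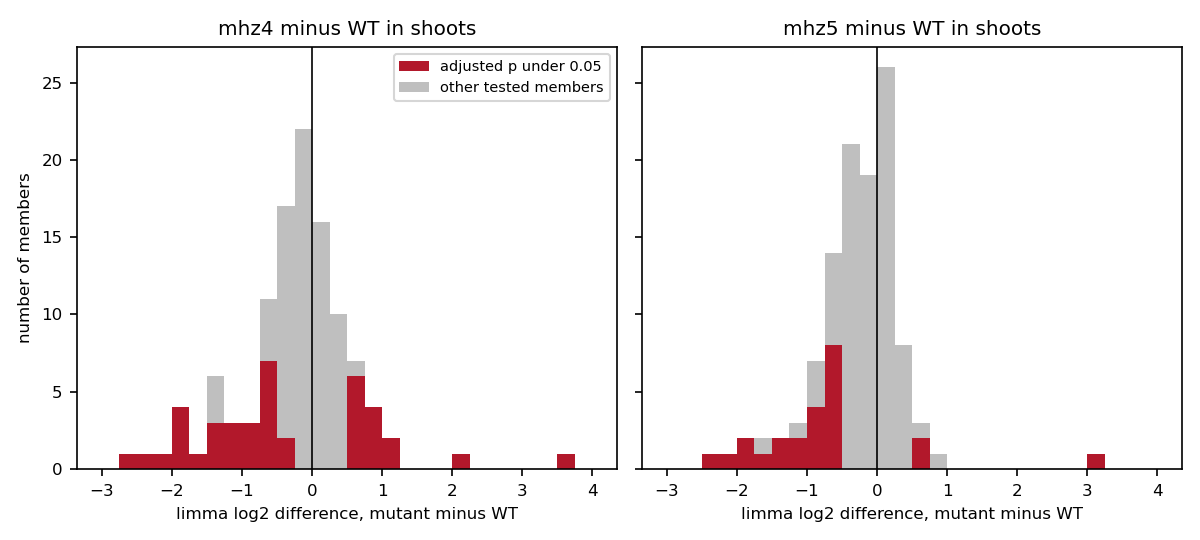
Number of members (y axis) by limma log2 difference, mutant minus WT (x axis), in mhz4 shoots (left) and mhz5 shoots (right), for the 111 members tested. Red bars are members with an adjusted p under 0.05, and grey bars are the other tested members.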

How the data were processed

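The deposited values are 1 linear intensity per probe set and array, made by the authors, and MAS5 is the tool given per the submitters' processing notes, without version or settings. The authors' columns have nearly the same distribution (array medians 16.3 to 17.0). No further scaling was applied. Here 123 control probe sets were left out and log2(signal + 8) was computed, which understates differences of dim probe sets. The members, the gene lists and the tests were chosen with earlier results of these data known. Gene names come from the platform's annotation table and the ASM3414082v1 gene table, none from a probe set with several genes. Genes on lists are represented by their probe set with the highest mean signal. Named genes are the 25 members with an informative name and the lowest mean root difference, members on a list, up to 10 members per shoot comparison and direction by adjusted p, neighbouring members, and up to 5 per property that stand out by rank.

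Shoots were tested with limma 3.58.1 in R 4.3.3 (genotype and gas, variance trend, mean of log2(signal + 8) of at least that of a signal of 50), with Benjamini-Hochberg adjustment over 19768 probe sets and a threshold of 0.05. Residual degrees of freedom were 2, prior ones 3.51, and the residual SD had a median of 0.112. The script was tested on simulated data. Each group has 1 array, and that number limits the precision. Root differences were described only. Alternatives were 15 other settings of the shoot fit and 8 of the rule. Gene positions in that table served only to find member genes within 100 kb of each other. Promoter and protein sequences were not used here.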

Additional observations from a re-analysis of the deposited data

Results flagged for a closer look

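Of the 94 members with 1 gene that were tested in shoots, 19 (20.2%), of 18 genes, had all 4 mutant minus WT shoot differences above 0 although their 4 root differences were at most -1. Over all 14885 probe sets with 1 gene that were tested in shoots, the share with all 4 above 0 was 35.5%. The difference between roots and shoots was not tested in any of them. For 8 of these a shoot call was made by limma in at least 1 mutant. Mean shoot differences were 3.46 for LOC4346790, 0.91 for LOC4348634, 0.90 for LOC9268371, 0.82 for LOC4345968, 0.57 for LOC4332717, 0.53 for LOC4344282, 0.44 for LOC4350431 and 0.38 for LOC4332481. Their mean root differences ran from -2.60 for LOC9268371 to -1.21 for LOC4350431. The files give none of these genes a function.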

How the results depend on the processing

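The list of 186 members held 100 with a constant of 32, 305 with a threshold of -0.8 and 44 with one of -1.5, and 126 to 212 under the other settings of the rule. With a constant of 32, 13 members in place of 20 were at -1 or less in mhz1 roots in both gases. With all 14 arrays fitted, 1 member was higher in mhz5 shoots, 9 were lower and 3 higher in ethylene, and 4 were lower in mhz5 than in mhz4 shoots. Without the filter on low values 7 were lower in ethylene and 3 lower in mhz5 than in mhz4, and without the variance trend 0 were higher in ethylene. The other counts of members stayed within 1.5 times under these settings, and no difference of a named member past the threshold turned its direction. Leaving out 1 shoot array in turn gave 4 to 33 members lower and 1 to 16 higher in mhz4, 3 to 32 lower and 0 to 6 higher in mhz5, 0 to 10 lower and 0 to 10 higher in ethylene, and 0 to 8 lower and 0 to 0 higher in mhz5 against mhz4. Over every alternative 4 of 26 mhz4 and 3 of 21 mhz5 lower calls remained, and 1 of 14 and 0 of 3 higher calls. Over all probe sets, mhz5 shoots had 529 lower and 1151 higher (31.5% lower), 740 and 938 (44.1%) after trimmed-mean scaling, and 785 and 764 (50.7%) after quantile normalization, which turned the balance of lower and higher calls; in mhz4 1234 and 1936 (38.9%), 1533 and 1668 (47.9%), and 1562 and 1540 (50.4%). Members lower among those called ran from 65.0% to 71.4% in mhz4 and 87.5% to 88.9% in mhz5. With all 14 arrays fitted, lower and higher calls over all probe sets were 2433 and 3300 in mhz4, 1385 and 2812 in mhz5, and 342 and 179 in ethylene (112 and 52 as reported). Without the filter ethylene gave 185 and 94, and with a mean filter at 100, 745 probe sets were higher in mhz5. For mhz5 against mhz4 the 6 lower and 42 higher became 92 and 145 with all 14 arrays, 62 and 117 without the filter, and 27 and 68 with at least 50 on at least 2 shoot arrays, while the lower count was 3 with a mean filter at 100 and 13 with a constant of 32. Cause was not tested. No paired analysis was possible because each group has 1 array, all numbered 1, so replicate numbers pair nothing; gas is already a term of the shoot fit, which sets mutant against WT within a gas. Low signal kept 75 members from the shoot test.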
